A study of Mus musculus with 2 samples.

Results

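The genes described here are 31 transcripts that mark blood vessel endothelium and the start of the blood-brain barrier, out of 43346 genes with an Ensembl identifier in the tables. They were chosen by name, and all 31 were found under their stable identifiers with the gene names of GENCODE M21 (GRCm38). For description they were divided into 20 pan-endothelial genes, 5 genes of endothelial tip cells and sprouting, and 6 genes of the barrier. The study measured total RNA from forebrain of B6NCrl mouse embryos at embryonic day 11.5, with no genetic change, treatment or second age. It held 1 group of 2 libraries, each from a separate pool of healthy embryos of both sexes, 109 embryos for replicate 1 and 88 for replicate 2. RNA above 200 nucleotides was used, 10 ng for each library, and spike-in RNAs were added to it.

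Vessels do not arise within the neural tube. They sprout into it from a plexus around it, led by tip cells that follow VEGF and, in the brain, WNT7 made by the neuroepithelium. The endothelium then tightens its junctions, gains transporters and loses the diaphragms of leaky capillaries, and this change is the blood-brain barrier. The forebrain at this age is mostly neuroepithelium with young vessels in it, so endothelial transcripts are a small part of the RNA. Mesenchyme transcripts were in the same RNA, and the part of vessels outside the neural tissue in the levels below was not tested. In such bulk RNA, fewer cells of a type and less RNA per cell cannot be told apart.

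Depth, as the sum of expected counts over annotated genes, was 23165260 for replicate 1 and 33597028 for replicate 2. Levels are TPM, the relative abundance of transcripts scaled by their length, given per library or as mean ± SD of the libraries (n = 2). Spike-ins took 13.0% and 12.7% of TPM, so mouse TPM are understated by about that share. Nothing in the labels ties the libraries to particular litters, and the spread over 2 pools is a narrow basis for any SD.

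Endothelial identity was clear and of moderate level. At least 1 TPM in both libraries was reached by 29 of the 31 genes, and 58.6% of all protein-coding genes passed the same rule. All 20 pan-endothelial and all 5 tip cell genes passed, with 4 of 6 barrier genes. At 5 TPM the numbers were 22 of 31 genes and 47.1% of protein-coding genes. Slco1c1 and Abcb1a, both transporters of the barrier class, were the genes below 1 TPM. The genes were selected as markers, so these counts check the label and do not rank vessels against other cell types.

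**Figure D1:**
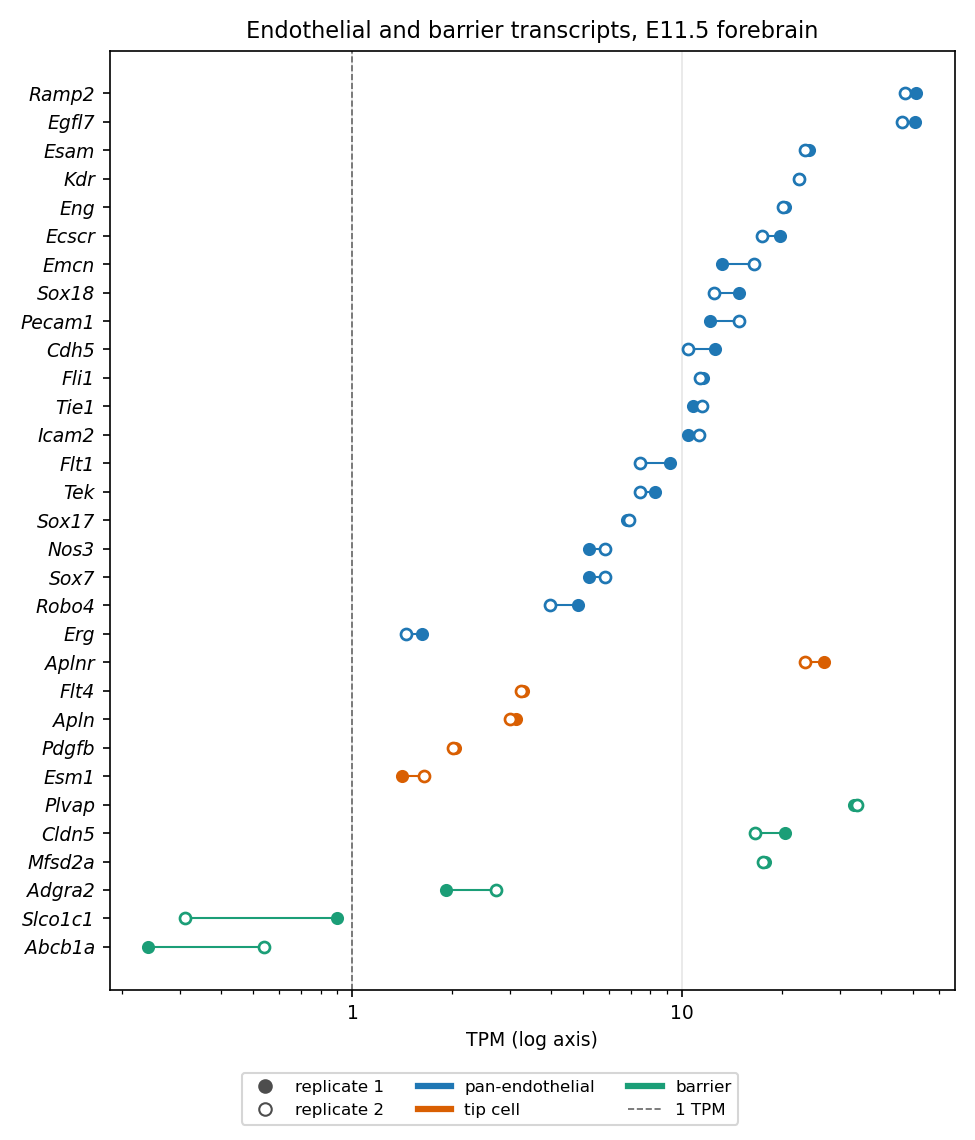
TPM on a log axis for the 31 genes, grouped by class and ordered by mean, with replicate 1 as filled and replicate 2 as open points joined by a line. The pan-endothelial genes run from Ramp2 to Erg, with the widest gaps below Egfl7 and above Erg. Aplnr stands apart from the other tip cell genes, and Plvap, Cldn5 and Mfsd2a stand apart from the other barrier genes.

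The levels ran from 49.4 ± 2.65 TPM for Ramp2 to 0.390 ± 0.212 TPM for Abcb1a. In the order of mean levels, 15 of 30 neighbouring pairs overlapped between libraries and 15 did not. The pair at the top, Ramp2 and Egfl7, overlapped, and Plvap, which followed this pair, lay apart from its neighbours on both sides. The run from Emcn through Sox18, Pecam1, Cdh5, Fli1 and Tie1 to Icam2 also overlapped, each gene with its next neighbour.

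Among the receptor tyrosine kinases, Kdr was the highest. Kdr encodes VEGFR2, the main signalling receptor for VEGF-A, and stood at 22.59 TPM in replicate 1 and 22.63 TPM in replicate 2 (ENSMUSG00000062960.7, chr5:75932827-75978458, minus strand). Flt1 encodes VEGFR1, which binds VEGF-A tightly and signals weakly, and stood at 9.16 and 7.47 TPM. The level of Kdr was therefore 2.75 ± 0.398 times that of Flt1, with 2.47 in replicate 1 and 3.03 in replicate 2. This ratio is of gene totals, and the full-length Flt1 transcript held 45.2% ± 0.557 of Flt1 TPM. Tie1, an orphan receptor, stood at 10.77 and 11.47 TPM. Tek encodes TIE2, the angiopoietin receptor, and stood at 8.24 and 7.46 TPM, which was 0.708 ± 0.0811 times Tie1. Kdr lay above the other 3 kinases in both libraries, and Tie1 above Tek in both.

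The molecules of endothelial junctions and surface came next. Cdh5, the cadherin of endothelial adherens junctions, stood at 12.60 and 10.43 TPM. Pecam1, a homophilic adhesion molecule also made by platelets and leukocytes, stood at 12.14 and 14.86 TPM. These genes changed places between the pools, Cdh5 being the higher in replicate 1 and Pecam1 in replicate 2. Esam, an adhesion molecule of endothelial tight junctions and platelets, stood at 24.26 and 23.53 TPM. Icam2, which binds leukocyte integrins, stood at 10.39 and 11.27 TPM, and the sialomucin Emcn at 13.17 and 16.47 TPM. Ecscr, a small endothelial surface protein, stood at 19.75 and 17.41 TPM. Robo4, the endothelial member of the roundabout receptors, was the lowest of these surface genes at 4.82 and 3.96 TPM.

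The highest members of the whole set were a receptor partner and a secreted protein. Ramp2 encodes the protein that turns the receptor Calcrl into a receptor for adrenomedullin, and stood at 51.25 and 47.51 TPM (ENSMUSG00000001240.9, chr11:101246028-101259546, plus strand). In GENCODE M21, 33.4% of its exonic bases also belong to exons of Vps25 on the same strand, a gene at 93.75 and 93.46 TPM. The division of reads between Ramp2 and Vps25 thus rests on the authors' quantification. Egfl7, a secreted protein of the vessel wall, stood at 50.64 and 46.38 TPM (ENSMUSG00000026921.14, chr2:26580014-26593120, plus strand). Relative to the median pan-endothelial gene of the same library (11.6 ± 0.336 TPM), Ramp2 was 4.25 ± 0.105 times and Egfl7 4.18 ± 0.139 times as high. The top Egfl7 transcript, Egfl7-202, held 13.36 and 16.34 TPM. Shorter entries held much of the rest, Egfl7-203 at 7.25 and 7.39 TPM and the retained-intron entries Egfl7-213 at 7.12 and 7.06 and Egfl7-214 at 6.67 and 5.95 TPM. In expected counts Egfl7 (667 and 878) was near Cdh5 (749 and 896), so its rank in TPM depends on this division. Eng, a co-receptor for BMP ligands, stood at 20.50 and 20.18 TPM. Nos3, the endothelial nitric oxide synthase, stood at 5.23 and 5.84 TPM. Of the exonic bases of Nos3, 25.2% overlap the antisense gene Gm15587 and 7.12% overlap Atg9b, both on the opposite strand and each under 0.5 TPM in both libraries.

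Egfl7 is also the host of a microRNA of the endothelium, miR-126. The hairpin gene Mir126a lies within the body of Egfl7 on the same strand and overlaps an exon of an annotated Egfl7 transcript. Its row in the tables had an effective length of 0 and a count of 0 in both libraries, and RNA below 200 nucleotides was not kept, so the mature product was not measured here. The mature sequence from RefSeq (GRCm38.p6, chr2:26591402-26591423, plus strand) is shown because the Egfl7 locus yields it, with the seed, bases 2 to 8, in capitals.
mmu-miR-126a-3p: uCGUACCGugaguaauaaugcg

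The transcription factors of endothelial identity were spread over a wide range. Of the ETS family members, Fli1 stood at 11.56 and 11.28 TPM, and Erg at 1.62 and 1.45 TPM (ENSMUSG00000040732.14, chr16:95359169-95586593, minus strand). Erg was therefore 0.134 ± 0.0082 times Fli1, and with 42 and 56 expected counts it was among the most thinly covered members. Fli1 is also made by megakaryocytes and other blood cells, whose markers were present in the same libraries. The SOXF factors, which act together in vessel growth and arterial identity, ranked with Sox18 first at 14.88 and 12.46 TPM. Sox17 followed at 6.79 and 6.90 TPM and Sox7 at 5.21 and 5.84 TPM. The order of the 3 SOXF genes was the same in both libraries, and Sox17 stood at 0.505 ± 0.0689 times Sox18. Exons of the non-coding gene Gm37587, on the opposite strand, cover 16.8% of the exonic bases of Sox17, and that gene was at 0.12 TPM or less.

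Because ETS and SOXF factors are the shared regulators of this gene set, the bases just upstream of the members' start sites were read from the RefSeq promoter table. It held 20 windows for 16 of the 31 genes, and the bases after the start lay in a GENCODE transcript of the gene for 18 of the 20. In the 250 bases before the start, an ETS core, searched as AGGAAG and separately as CGGAAG on either strand, occurred in 11 of 20 windows (55%). Of all 32851 windows of that length in the table, 39.2% held it. A SOX core, searched as ACAAAG and as the related words ACAATG, together with ACAATA and finally ACAATT, on either strand, occurred in 9 of 20 windows (45%) and in 35.2% of all windows. Only these words were searched, so ETS or SOX sites written with other letters were not counted. Windows of 1 gene can overlap or share features, and no binding was measured, so these are counts of letters only. The windows of 2 pan-endothelial genes and of the 2 best expressed barrier genes with an entry are shown, 5′ to 3′ on the strand of the gene, with ETS cores in capitals. They lie at chr2:32646345-32646594 (plus) for Eng, chr5:147726012-147726261 (minus) for Flt1, chr16:18776597-18776846 (plus) for Cldn5 and chr4:122961189-122961438 (minus) for Mfsd2a, all in GRCm38.p6.
Eng: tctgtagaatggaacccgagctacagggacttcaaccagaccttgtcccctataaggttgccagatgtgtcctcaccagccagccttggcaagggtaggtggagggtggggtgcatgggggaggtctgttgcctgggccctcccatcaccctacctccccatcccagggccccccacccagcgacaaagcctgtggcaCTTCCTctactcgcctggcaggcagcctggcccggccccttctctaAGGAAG
Flt1: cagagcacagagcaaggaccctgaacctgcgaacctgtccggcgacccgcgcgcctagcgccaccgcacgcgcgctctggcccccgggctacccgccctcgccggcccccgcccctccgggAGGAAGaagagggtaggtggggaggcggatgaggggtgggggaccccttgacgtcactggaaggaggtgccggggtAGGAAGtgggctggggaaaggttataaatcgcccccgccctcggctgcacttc
Cldn5: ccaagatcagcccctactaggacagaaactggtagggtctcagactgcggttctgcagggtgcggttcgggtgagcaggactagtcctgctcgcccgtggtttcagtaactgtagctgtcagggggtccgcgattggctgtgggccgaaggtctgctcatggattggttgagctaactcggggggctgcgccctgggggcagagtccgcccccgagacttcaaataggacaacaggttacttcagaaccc
Mfsd2a: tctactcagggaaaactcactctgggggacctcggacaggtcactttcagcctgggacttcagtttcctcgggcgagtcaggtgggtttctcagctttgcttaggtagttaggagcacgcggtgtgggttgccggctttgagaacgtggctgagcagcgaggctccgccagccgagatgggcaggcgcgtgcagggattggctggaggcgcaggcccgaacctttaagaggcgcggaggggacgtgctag
Eng and Flt1 each held 2 ETS cores in these windows. Cldn5 and Mfsd2a held neither of the 2 ETS words there, which says nothing of ETS sites with other letters or elsewhere in those genes. These 4 windows do not stand for their classes. By class, 8 of 13 pan-endothelial, 2 of 4 barrier and 1 of 3 tip cell windows held an ETS core. The windows of Kdr and Tek held neither ETS word, while those of Abcb1a and Slco1c1 held 2 matches and 1 match. However, the Abcb1a and Slco1c1 windows are those whose bases after the start lay in no GENCODE transcript of the gene. The Abcb1a window, at chr5:8566841-8567090, lies well upstream of the M21 gene start at 8660077. The barrier windows with an ETS core are thus the ones least securely placed at a start site.

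Tip cell genes were low apart from 1. Aplnr, the receptor for apelin found on sprouting and venous endothelium, stood at 26.81 and 23.59 TPM (ENSMUSG00000044338.9, chr2:85136225-85139923, plus strand). Its ligand gene Apln, made by tip cells, stood at 3.13 and 3.0 TPM. The ligand was 0.122 ± 0.00737 times the receptor. Flt4 encodes VEGFR3, the receptor for VEGF-C on tip cells and lymphatic vessels, and stood at 3.28 and 3.25 TPM. Pdgfb, with which tip cells recruit pericytes, stood at 2.04 and 2.02 TPM. Esm1, a proteoglycan induced by VEGF at sprouting fronts, stood at 1.41 and 1.65 TPM on 43 and 73 expected counts. All 4 of these genes lay at 0.281 times the median pan-endothelial gene or below, while Aplnr lay at 2.17 ± 0.133 times it.

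The barrier class was divided. Plvap, which builds the diaphragms of fenestrated and immature capillaries and disappears from brain vessels as they mature, was the highest at 33.21 and 33.90 TPM (ENSMUSG00000034845.5, chr8:71497765-71511752, minus strand). Cldn5, the main claudin of brain endothelial tight junctions, stood at 20.44 and 16.65 TPM (ENSMUSG00000041378.1, chr16:18776847-18778262, plus strand). Plvap was thus 1.83 ± 0.291 times Cldn5, and above it in both libraries. The part of vessels outside the neural tissue in this ratio was not tested. Mfsd2a, a carrier of lysophosphatidylcholine with omega-3 fatty acids that restrains vesicle transport across the endothelium, stood at 17.81 and 17.63 TPM (ENSMUSG00000028655.7, chr4:122946850-122961188, minus strand). Mfsd2a was 1.53 ± 0.0332 times the median pan-endothelial gene. Its pools were closer in TPM than in counts, which had a log2 ratio of -0.17, replicate 2 over replicate 1. The transcript Mfsd2a-201 held 17.47 and 15.18 TPM, while the 475-base Mfsd2a-202 held 0.34 and 2.46 TPM on 1.97 and 20.41 expected counts. Relative to Cdh5, Cldn5 was 1.62 times as high in replicate 1 and 1.60 times in replicate 2.

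The other barrier genes were low, and Slco1c1 and Abcb1a rested on few counts. Adgra2 encodes GPR124, the co-receptor with which endothelium reads WNT7, and stood at 1.92 and 2.73 TPM on 162 and 233 expected counts. Slco1c1, a thyroid hormone carrier of brain endothelium and choroid plexus, stood at 0.90 and 0.31 TPM on 38 and 20 expected counts (ENSMUSG00000030235.13, chr6:141524368-141570177, plus strand). Abcb1a, the drug efflux pump P-glycoprotein, stood at 0.24 and 0.54 TPM on 15.96 and 46.59 expected counts (ENSMUSG00000040584.8, chr5:8660077-8748575, plus strand). For Abcb1a the deposited estimates themselves were apart, since the posterior mean TPM in the authors' deposited tables was 2.54 and 2.13. The deposited credibility interval of its TPM, whose level is not stated, ran from 0.241 to 6.85 in replicate 1 and from 0.472 to 5.12 in replicate 2. By the posterior mean Abcb1a would pass 1 TPM, and 30 of 31 genes would be detected. The posterior means of the other 30 genes were 0.969 to 1.13 times their TPM.

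As classes, the medians of log2(TPM + 1) were 3.66 ± 0.0382 for the pan-endothelial genes, 2.96 ± 0.0924 for the barrier genes and 2.02 ± 0.0326 for the tip cell genes. The median of all protein-coding genes was 2.30 ± 0.0207. The pan-endothelial median exceeded the tip cell median by 1.63 ± 0.00557 and the barrier median by 0.70 ± 0.131. The barrier median exceeded the tip cell median by 0.93 ± 0.125. Only the first of these differences kept its sign under every alternative tried. With the genes below 1 TPM left out, the pan-endothelial minus barrier difference became -0.60, and with Cldn5 and Flt4 counted as pan-endothelial, the barrier minus tip cell difference became -0.089. A median of 6 genes that fall into a high and a low set does not describe either set. In summed TPM the classes held 310 ± 7.62, 73.1 ± 1.95 and 35.1 ± 2.23, in the order pan-endothelial, barrier, tip cell. These sums cover 20, 6 and 5 genes, and single genes carry the smaller ones. Aplnr made up 25.2 of the 35.1 TPM of the tip cell genes. Plvap, which marks fenestrated and immature vessels, made up 33.6 of the 73.1 TPM of the barrier genes.

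Differences between the embryo pools were small for most members. The counts of the libraries were compared gene by gene with an exact binomial test given the library sizes, which compares these libraries and not conditions. Of the 31 genes, 6 passed at an adjusted p of 0.05 (19.4%), against 23.5% of the 18297 genes tested. The members' share is thus near the background. The test was repeated with an allowed coefficient of variation of 10% between pools (exact negative binomial test of edgeR). None of the 31 then passed at an adjusted p of 0.05, against 0.809% of all genes tested. At an unadjusted p under 0.05 there were 2 of 31, and no share of all genes is given at that level.

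**Figure D2:**
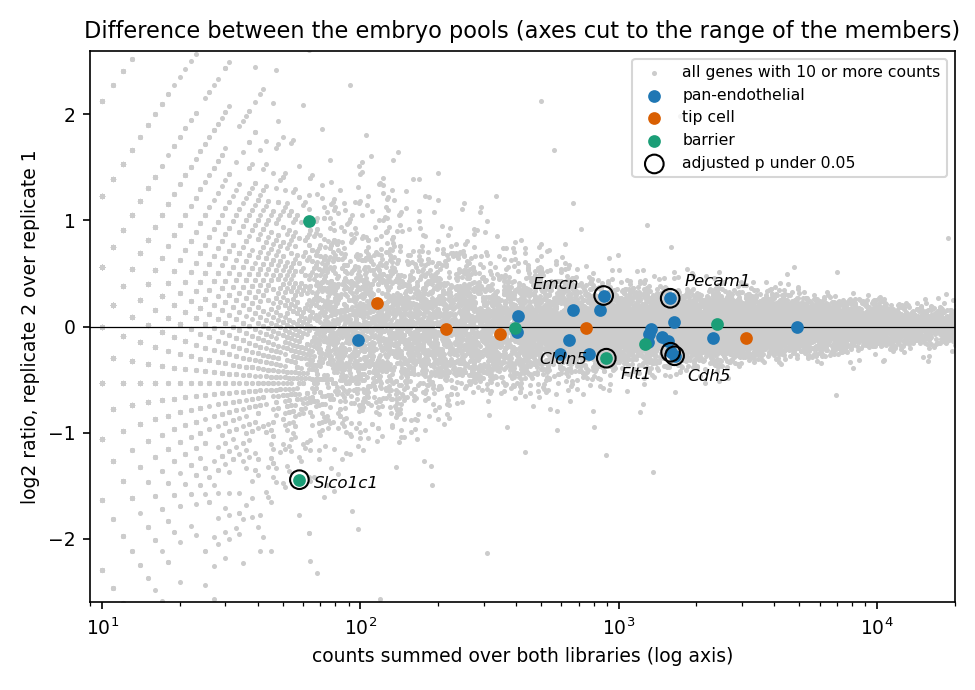
Log2 ratio of replicate 2 over replicate 1 against the counts summed over both libraries (log axis), for all genes with 10 or more counts (grey) and the 31 genes (coloured by class), with rings on those past the exact binomial test. The members lie within the grey cloud and only Slco1c1, at -1.44, is far from 0 among the ringed genes.

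Of the 6 genes, 4 were lower in replicate 2 and 2 were higher, against 11.4% and 12.1% of all genes tested in these directions. Cldn5 had a log2 ratio of -0.30 (95% exact interval -0.49 to -0.10, exact binomial adjusted p = 0.0133). Cdh5 had -0.28 (interval -0.42 to -0.13, exact binomial adjusted p = 0.00137), and Flt1 had -0.24 (interval -0.39 to -0.10, exact binomial adjusted p = 0.00685). Pecam1 and Emcn went the other way, at 0.27 (exact binomial adjusted p = 0.00314) and 0.29 (exact binomial adjusted p = 0.0209). Slco1c1 had the largest shift of the set, -1.44 (interval -2.32 to -0.64, exact binomial adjusted p = 0.00216), on 58 counts in all. These intervals cover counting error only. Pan-endothelial genes were thus called in both directions, and their median log2 ratio was -0.09, with a range from -0.28 to 0.29. In all, 22 of 31 genes were lower in replicate 2 and 9 higher, with a median of -0.07 beside a median of 0 over all genes.

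The gene-level TPM of Adgra2 differed more than its counts. Its TPM was 1.92 and 2.73, yet its log2 count ratio was -0.01 (interval -0.30 to 0.29). In replicate 2 a short transcript annotated for nonsense-mediated decay, Adgra2-203, was given 0.96 TPM on 16.56 expected counts, and in replicate 1 it was given 0. TPM divides by transcript length, so a read on a short transcript adds more TPM than a read on a long one.

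The transcript tables hold estimates that divide each gene's reads among listed transcripts, and are no direct record of its products. For 8 of the 31 genes, Cdh5, Cldn5 and Plvap among them, the table lists only 1 transcript, so nothing could be divided. Of the 23 genes with several, 5 had a single transcript at 90% or more of the gene's TPM in both libraries, namely Kdr, Fli1, Flt4, Nos3 and Ecscr. In Flt1, Erg, Slco1c1 and Abcb1a, 2 or more transcripts held at least 20% in both libraries, and only Flt1 of these 4 had more than 100 counts in each library.

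Flt1 makes a membrane receptor and a soluble decoy that lacks the transmembrane and kinase parts. The full-length transcript Flt1-202, with 1333 codons, held 45.2% ± 0.557 of Flt1 TPM, at 4.18 and 3.35 TPM. The coding transcript Flt1-203, with 688 codons, held 24.9% ± 3.83, at 2.03 and 2.06 TPM. A non-coding transcript, Flt1-201, held the other 29.9% ± 3.27. The shorter coding transcript shares its first 657 whole codons with the full-length one and then has a private coding end of 92 bases (GRCm38, chr5:147639133-147639224, minus strand). This end is the coding part of Flt1-203 that Flt1-202 lacks, and it is shown in capitals after the last 15 shared bases. The 2 forms also differ outside it, in the further codons of Flt1-202 and in non-coding bases.
Flt1-203 coding end: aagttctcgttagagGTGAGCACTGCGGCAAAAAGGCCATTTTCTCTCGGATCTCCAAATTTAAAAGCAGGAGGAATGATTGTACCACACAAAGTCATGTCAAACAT
Expected counts were 434.01 and 503.32 for Flt1-202, and 191.91 and 282.00 for Flt1-203. The share of the short form was 22.2% in replicate 1 and 27.6% in replicate 2, so both libraries held it below the full-length form.

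**Figure D3:**
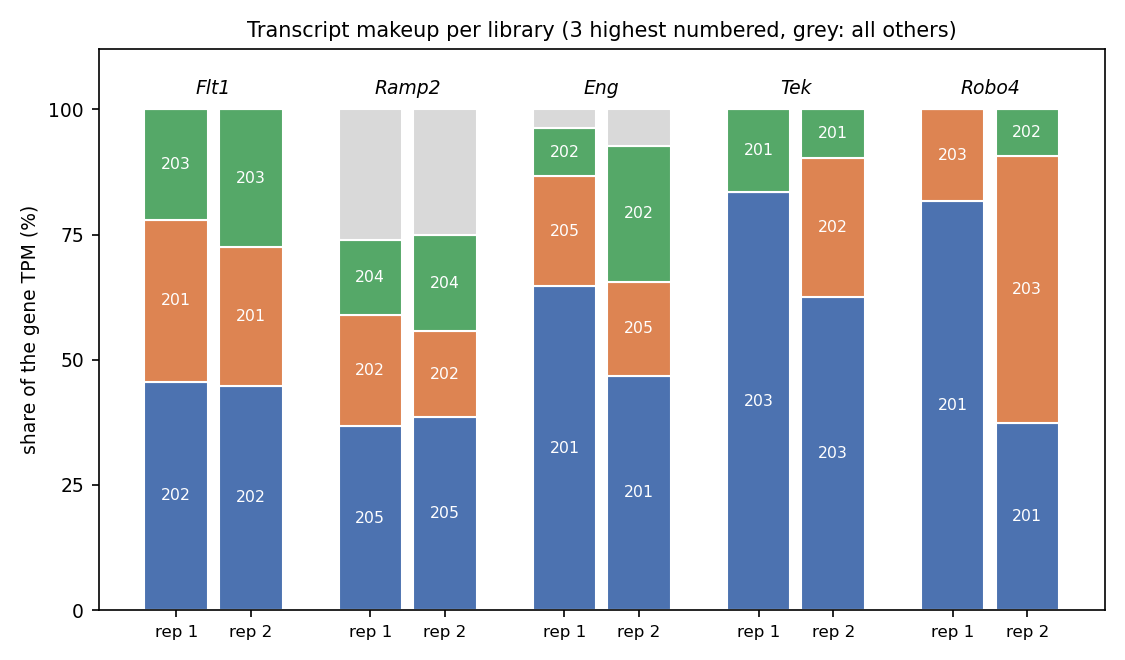
Share of each gene's TPM by transcript in replicates 1 and 2 for Flt1, Ramp2, Eng, Tek and Robo4, with the 3 highest transcripts coloured and labelled by their number and all others in grey. The bars of Flt1 and Ramp2 are alike in both libraries, while Robo4-201 takes 81.7% in replicate 1 and 37.4% in replicate 2.

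In other genes the division among transcripts did not hold from pool to pool. In 7 of 31 genes at least 1 transcript differed by 20 percentage points or more, namely Abcb1a, Adgra2, Erg, Icam2, Robo4, Slco1c1 and Tek. Robo4-201 held 81.7% and 37.4%, and Robo4-203 held 18.3% and 53.3%. The gene Robo4 itself had a log2 count ratio of -0.26 (interval -0.49 to -0.02), which did not pass the exact binomial test after adjustment (adjusted p = 0.117). Tek-203 held 83.5% and 62.6%, with Tek-202 at 0 in replicate 1 and 2.07 TPM in replicate 2. In Ramp2 the most abundant entry was a transcript annotated with a retained intron, Ramp2-205, at 36.8% and 38.6%.

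The signals that these receptors read were present in the same RNA. Of 19 ligands and receptor partners, 18 reached 1 TPM in both libraries, as did 58.6% of all protein-coding genes. Vegfa, the ligand of Kdr and Flt1, stood at 2.52 and 2.17 TPM, below Vegfb, a ligand of Flt1, at 25.85 and 23.30 TPM. Vegfc, the ligand of Flt4, stood at 8.63 and 9.64 TPM. The neuropilins Nrp1 and Nrp2, co-receptors for VEGF and semaphorins that neurons also make, stood at 13.5 ± 0.304 and 16.4 ± 0.255 TPM. The guidance ligand Slit2, made by neural tissue, was the highest of the list at 27.6 ± 0.495 TPM.

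The TIE2 ligands were both low. Angpt1, the activating ligand, stood at 5.88 and 5.71 TPM. Angpt2, the context-dependent antagonist made by sprouting endothelium, stood at 3.64 and 1.84 TPM. Its expected counts were 113 and 122, so that at the depths of these libraries the pools were closer in counts than in TPM. Calcrl, the receptor that Ramp2 modifies, stood at 10.8 ± 0.396 TPM and its ligand gene Adm at 4.45 ± 0.149 TPM. Acvrl1, the endothelial BMP receptor ALK1 that works with Eng, stood at 5.78 ± 0.198 TPM. Pdgfrb, the pericyte receptor for the product of Pdgfb, stood at 15.13 and 17.16 TPM, so that Pdgfb was 0.126 ± 0.0121 times its receptor.

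For the WNT7 arm of brain angiogenesis, 12 of 12 listed genes reached 1 TPM in both libraries, as did 58.6% of all protein-coding genes. This count covers all cells of the tissue and shows no pathway activity in vessels. Wnt7b stood at 108.71 and 114.38 TPM and Wnt7a at 11.88 and 10.86 TPM, a ratio of 9.84 ± 0.977. Neuroepithelium is the known source of both. Reck, the partner of Adgra2 in recognising WNT7, stood at 9.30 and 8.91 TPM and the receptor Fzd4 at 3.25 and 4.25 TPM. Lef1, a WNT effector and target that neural progenitors also express, stood at 53.9 ± 4.77 TPM, while Ctnnb1, beta-catenin, stood at 551 ± 30.2 TPM and Tnfrsf19 at 74.8 ± 3.29 TPM. Ligands were thus far more abundant than the endothelial co-receptor Adgra2 in this whole-tissue RNA.

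**Figure D4:**
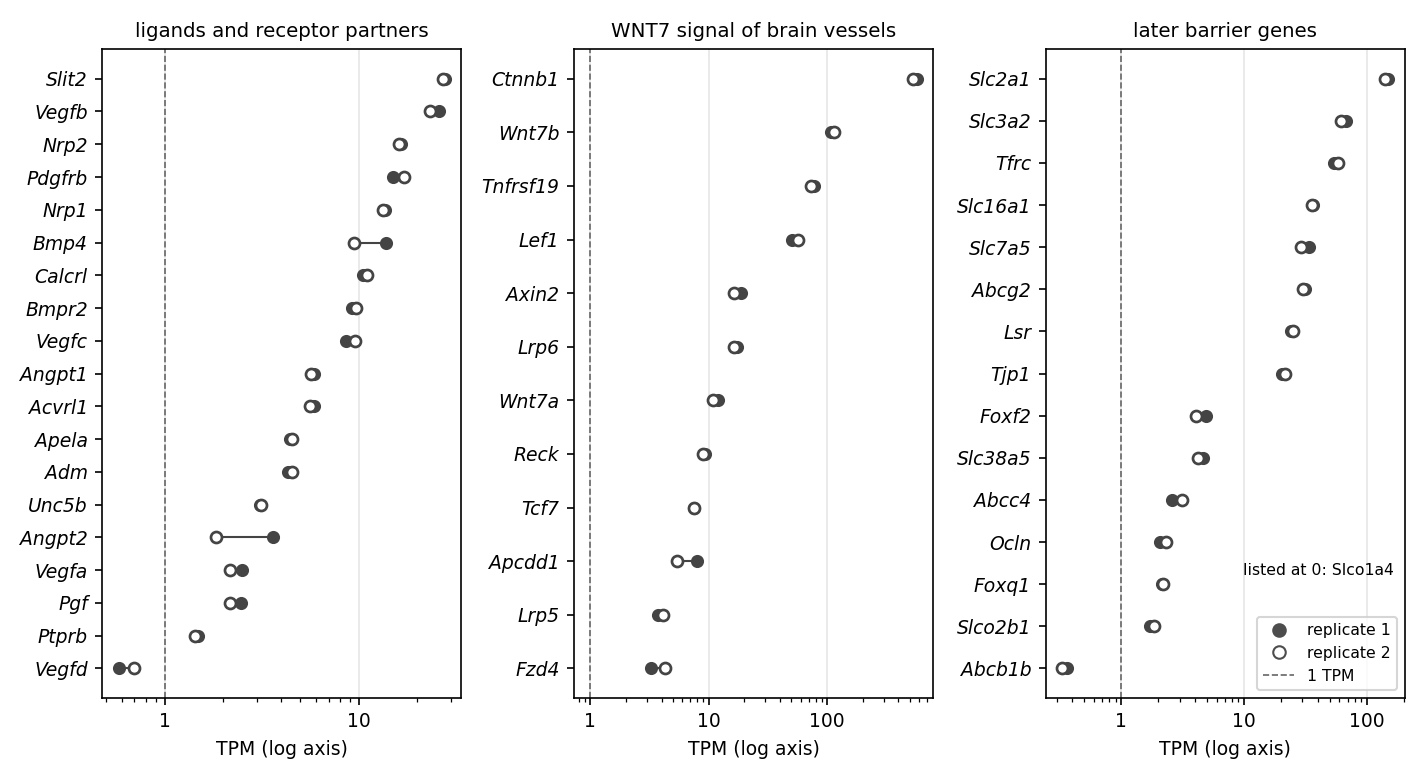
TPM on a log axis, replicate 1 filled and replicate 2 open, for ligands and receptor partners (left), the WNT7 signal (middle) and later barrier genes (right). Wnt7b exceeds Wnt7a in both libraries, Angpt2 is the ligand whose libraries lie farthest apart on the log axis, and Slco1a4 is listed at 0.

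Notch signalling and artery and vein genes were mixed with neural expression. Of 13 such genes 12 reached 1 TPM, beside 58.6% of all protein-coding genes. Dll4, the Notch ligand of tip cells and arteries, stood at 2.92 and 2.23 TPM, and Notch4, an endothelial Notch receptor, at 6.89 and 4.59 TPM. The highest genes of the list were Nr2f2 at 73.0 ± 6.15, Notch1 at 54.9 ± 1.45, Hey1 at 53.6 ± 3.43 and Efnb2 at 41.0 ± 0.955 TPM. All 4 of these are known in the embryonic forebrain outside vessels as well, so their levels cannot be read as endothelial.

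Of 16 genes known from the later barrier, 14 reached 1 TPM, beside 58.6% of all protein-coding genes. Slc2a1, the glucose carrier GLUT1, stood at 145.5 ± 7.28 TPM, followed by Slc3a2 at 65.1 ± 4.14, the transferrin receptor Tfrc at 56.1 ± 2.92 and the lactate carrier Slc16a1 at 36.0 ± 0.446 TPM. These serve dividing cells and red cell precursors too. The list members below 1 TPM, Slco1a4, an organic anion carrier listed at 0 in both libraries, and Abcb1b, the paralog of Abcb1a at 0.36 and 0.33 TPM, are transporters like Slco1c1 and Abcb1a. Among 10 genes of endothelium outside the brain, 6 reached 1 TPM, a share near the 58.6% of all protein-coding genes. They were led by Plvap, Vcam1 at 29.1 ± 1.33, Ehd4 at 10.2 ± 0.735 and Vwf at 8.08 ± 1.53 TPM. The venular selectin Sele had no count.

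Markers of other cell types that share genes with this set were present in both libraries. In the blood and platelet list 11 of 12 genes reached 1 TPM, with summed TPM of 148.95 and 134.80. Of all protein-coding genes 58.6% did so, the share to set beside this count and those of the lists below. Its highest members were the platelet chemokine Pf4 at 47.1 ± 5.23 TPM, Cd34, which endothelium also makes, at 41.8 ± 2.11, Kit at 15.2 ± 0.297 and Ppbp at 12.4 ± 0.240 TPM. Itga2b, the defining platelet integrin, stood at 4.94 ± 1.36 TPM. Pecam1, Icam2, Esam, Fli1, Erg and Tek are known in blood cells or their precursors, and the part of those cells in their levels was not tested.

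In the pericyte list 8 of 10 genes reached 1 TPM, and the list summed to 95.08 and 95.01 TPM. Most of this sum came from Vtn at 29.8 ± 1.34, Notch3 at 21.1 ± 0.481 and Acta2 at 17.7 ± 1.77 TPM, followed by Pdgfrb. The other members were low, with Kcnj8 at 4.22, Anpep at 2.18, Rgs5 at 1.8, Abcc9 at 1.2, Cspg4 at 0.815 and Higd1b at 0.055 TPM. In the lymphatic list, which shares Flt4, 5 of 6 genes reached 1 TPM. Its members Pdpn at 59.5 ± 0.523 and Prox1 at 6.31 ± 0.509 TPM are also made by neural cells, and Itga9 stood at 5.25 ± 0.438 TPM. Choroid plexus also makes Slco1c1, and 4 of its 7 listed markers passed the same level, a share near the 58.6% of all protein-coding genes. They were Otx2 at 57.6 ± 2.93, Folr1 at 8.66 ± 0.502, Ttr at 7.48 ± 0.990 and Clic6 at 2.84 ± 0.566 TPM. The list summed to 76.14 TPM in replicate 1 and 78.84 TPM in replicate 2, while Slco1c1 was 0.90 and 0.31. Otx2 alone supplied 55.49 and 59.64 TPM of these sums, so they mostly follow that gene. The markers below 1 TPM were Aqp1 at 0.6, Kcne2 at 0.215 and Kl at 0.135 TPM. Within the list Ttr and Clic6 were lower in replicate 2 and Otx2 and Folr1 higher, and the part of choroid plexus in the Slco1c1 difference was not tested.

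The remaining lists give the tissue around the vessels. Mesenchyme genes (10 of 10 at 1 TPM or more) summed to 724.66 and 735.88 TPM, led by Col3a1, Col1a1, Col1a2 and Lum, and microglia and macrophage genes (11 of 11) to 79.14 and 73.22 TPM, led by C1qb, Fcer1g, Tyrobp and C1qc. Erythroid genes (9 of 9) summed to 20384 ± 793 TPM and neural progenitor genes (10 of 10) to 2435 ± 4.96 TPM. The 20 pan-endothelial genes summed to 315.57 and 304.80 TPM beside them. None of these sums shows how many cells of a type the tissue held.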

How the data were processed

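Per the file headers and the deposited text notes, the authors aligned reads to mm10 and deposited expected counts (estimated reads, not always whole), TPM, posterior mean TPM and credibility bounds per gene and transcript on GENCODE M4. The aligner, quantifier and strand handling were not given in the sources used here. Names and positions came from GENCODE M21 of the same build. Numeric identifiers and spike-ins stayed out of library sizes.

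Rounded counts were scaled by TMM (edgeR 4.0.16, R 4.3.3) and compared with an exact two-sided binomial test (SciPy 1.17.1), Benjamini-Hochberg adjusted over genes with 10 or more counts summed. With 1 library on each side, edgeR's quasi-likelihood test could not be fitted. DESeq2 1.42.0 size factors were an alternative. The test was run on simulated data first. Log2 ratios used a prior of 0.5 counts, and levels a pseudocount of 1.

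The members and all lists were chosen with earlier results of these data known. Named are all 31 members, the 4 highest genes of each other list and chosen partners. Slco1a4, Abcb1b, Sele, Vps25, Gm15587, Atg9b, Gm37587 and Mir126a were named after their values were seen. The same holds for Kcnj8, Anpep, Rgs5, Abcc9, Cspg4, Higd1b, Aqp1, Kcne2 and Kl.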

Additional observations from a re-analysis of the deposited data

How the results depend on the processing

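With 2 libraries, leaving out either one only returns the value of the other, so it is no check of stability. The class medians then ran from 3.63 to 3.68 (pan-endothelial), 2.0 to 2.05 (tip cell) and 2.89 to 3.02 (barrier). DESeq2 size factors and no filter on counts called the same 6 genes between pools. With a coefficient of variation of 10% between pools, 0 of 31 passed. Rescaling TPM to annotated genes alone raised every gene by 0.20 log2 units in both libraries, giving class medians of 3.84 (pan-endothelial), 2.175 (tip cell) and 3.12 (barrier), sums of 355.9, 40.3 and 83.9 TPM, and a pan-endothelial minus tip cell difference of 1.665. With a pseudocount of 0.1 the medians were 3.55, 1.66 and 2.69, and pan-endothelial exceeded tip cell by 1.89 and barrier by 0.86. With members at 1 TPM or more only, the barrier median was 4.25, pan-endothelial minus barrier was -0.60 and barrier minus tip cell was 2.23, since this removes Slco1c1 and Abcb1a. With Cldn5 and Flt4 counted as pan-endothelial, the barrier and tip cell medians were 1.72 and 1.81, pan-endothelial exceeded them by 1.93 and 1.845, and barrier minus tip cell was -0.089. Without Plvap and Adgra2 the barrier median was 2.48, pan-endothelial minus barrier was 1.175 and barrier minus tip cell 0.46. With posterior mean TPM, pan-endothelial minus tip cell was 1.66 and Erg to Fli1 was 0.155. For the pseudocount and posterior mean the cause was not tested. No paired analysis was possible because there is 1 group. Counts under 100 in both pools limit what can be said of Erg, Esm1, Slco1c1 and Abcb1a.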
